A study of Mus musculus with 16 samples.

Results

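Transcripts of 10 feedback inhibitors of mitogen-activated protein kinase (MAPK) signalling were followed in mIMCD3 cells, an established line from the inner medullary collecting duct of the mouse kidney. They comprise the dual-specificity phosphatases Dusp1, Dusp4, Dusp5, Dusp6, Dusp8, Dusp10 and Dusp16, the Sprouty genes Spry2 and Spry4, and the Sprouty-related gene Spred1. The genes were chosen by name, and the rows with these symbols were read from count files that list 55367 symbols. All 10 were found, and all 10 passed the filter on low counts that left 19509 genes for testing.

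The data were 16 RNA-seq libraries, 2 for each of 8 conditions, which the study describes as biological replicates. Wild-type (WT) cells received the solvent DMSO or 10 µM sulforaphane (SFN), an isothiocyanate that activates the transcription factor Nrf2, for 5 h. They were then taken unstressed (isosmotic), or stressed with hyperosmotic medium for 1 h or for 6 h, which gave 6 conditions. Cells without Nrf2 (Nrf2-/-) were all given SFN and were taken isosmotic or after 1 h of hyperosmotic stress. Nrf2-/- cells with DMSO, and Nrf2-/- cells at 6 h, were not analysed here. The Nrf2-/- line was made with lentiviral CRISPR/Cas9 and drug selection, so loss of Nrf2 and the derivation of the line cannot be told apart. For the sequenced cells the labels give the stress medium as 600 mOsm at 1 h and do not repeat the osmolality at 6 h, although hyperosmotic medium of 600 mOsm for 6 h was used in a viability screen in the same line. In that screen isosmotic cells had their medium replaced too, whereas the labels of the sequenced cells describe a change of medium for stressed cells only. As labelled, stress, new medium and the added time in culture cannot be told apart.

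MAPK cascades pass signals from growth factor receptors and cell stress to the kinase branches ERK, p38 and JNK. Dual-specificity phosphatases remove the activating phosphates from these kinases, and Sprouty and Spred proteins act higher up, near the receptor. Many of these genes are themselves induced by the kinases they restrain, so that each forms a negative feedback loop. In the kidney medulla, p38 and JNK are known to respond to hypertonicity.

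Total counts per library ranged from 34484296 to 50774875. Nfe2l2, which encodes Nrf2, was at 76.3 ± 2.21 CPM (counts scaled to equal library size, SD, n = 2) in isosmotic WT cells with DMSO, at 72.5 ± 7.83 CPM with SFN and at 11.4 ± 0.361 CPM in isosmotic Nrf2-/- cells. The biological coefficient of variation between the libraries of a condition was 0.0393 to 0.128 in 7 conditions and 0.348 in Nrf2-/- cells at 1 h, so that pair stood apart from the others. All 8 epithelial markers were expressed, with a sum of 2397 to 4756 CPM, whereas 8 of 10 markers of collecting duct principal cells, Aqp2 and the other aquaporins on the list among them, never exceeded 1 CPM. Summed markers of intercalated cells, thick limb, podocytes, endothelium, fibroblasts and leukocytes stayed at or below 9.57 CPM in every library, and those of proximal tubule at or below 12.6 CPM. One label names primary tubular cells as the source of RNA, against mIMCD3 in all the others.

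The promoters of 4 members are shown: Dusp1 and Dusp5 fell at 1 h, Dusp8 fell at 6 h, and Dusp6 rose most at 6 h. They include every member found to hold a full CRE or a CArG box, both explained below, so they do not stand for the other promoters searched. RefSeq sequences of GRCm38.p6, the assembly also called mm10, were matched by symbol for 8 of the 10 members. Each window runs from 250 to 51 bases before an annotated RefSeq start, read 5′ to 3′ on the strand of the gene. The Dusp8 window lies inside the span of its gene, and the Dusp1 window inside the GENCODE M21 span given below. For Dusp8 the start used is thus an inner one, as it is for Dusp1 in GENCODE. Capitals mark cyclic AMP response elements (CRE, TGACGTCA), their shorter core (TGACG, or CGTCA when read on the other strand) and CArG boxes, the sites of serum response factor. The windows are chr17:26508523-26508722 (minus strand) for Dusp1, chr19:53528895-53529094 (plus) for Dusp5, chr7:142095335-142095534 (minus) for Dusp8 and chr10:99262981-99263180 (plus) for Dusp6.
Dusp1: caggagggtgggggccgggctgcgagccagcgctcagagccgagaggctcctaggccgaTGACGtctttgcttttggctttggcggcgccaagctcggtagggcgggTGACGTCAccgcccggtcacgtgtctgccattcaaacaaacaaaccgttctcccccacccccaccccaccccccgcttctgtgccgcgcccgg
Dusp5: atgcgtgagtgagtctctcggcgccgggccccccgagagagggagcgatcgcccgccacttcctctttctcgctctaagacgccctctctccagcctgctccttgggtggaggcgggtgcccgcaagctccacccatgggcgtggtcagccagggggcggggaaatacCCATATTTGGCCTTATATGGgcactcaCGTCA
Dusp8: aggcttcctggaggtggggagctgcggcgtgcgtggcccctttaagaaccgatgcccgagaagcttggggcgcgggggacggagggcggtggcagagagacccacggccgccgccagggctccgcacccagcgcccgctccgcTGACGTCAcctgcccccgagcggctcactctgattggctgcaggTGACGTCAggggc
Dusp6: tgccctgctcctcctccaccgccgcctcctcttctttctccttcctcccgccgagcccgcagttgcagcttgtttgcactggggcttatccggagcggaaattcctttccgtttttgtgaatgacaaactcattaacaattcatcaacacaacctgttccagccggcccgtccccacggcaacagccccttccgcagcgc

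A full CRE was found in the 250 bases before the start used for Dusp1, at position -143 to -136. It was found at a pair of places before the inner start used for Dusp8, at -107 to -100 and -63 to -56. It occurred in 1.55% of the 32851 RefSeq promoters of the same length, and in these 2 of the 8 members. The shorter core, which every full CRE also contains, was in 4 of 8 members and in 17.8% of all promoters. CArG boxes stood side by side before Dusp5, at -82 to -73 and -72 to -63, and 1.47% of all promoters held such a box. The letters of the antioxidant response element (TGACNNNGC), to which Nrf2 binds, occurred before Dusp1 and Dusp5 and in 10.2% of all promoters. None of the 8 members searched had the AP-1 site (TGANTCA, 6.75% of all promoters) in this window. None had the tonicity element TonE by name (4.31%) or CCGGAA, a longer form of the ETS site (12%). Shorter ETS forms were not searched. Both strands were searched, and a match describes letters only.

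In unstressed WT cells with DMSO, the ERK phosphatases were the most abundant members per length. Dusp5, which acts on ERK in the nucleus, was at 70.5 ± 2.92 CPM per kb of exon (SD, n = 2), and Dusp6, which acts on ERK in the cytoplasm, was at 48.5 ± 0.514. Dusp1 and Dusp4, nuclear phosphatases of ERK, p38 and JNK, followed at 30.6 ± 1.97 and 26.8 ± 2.76 CPM per kb, and no neighbours in this order overlapped between libraries. Spry2 was at 18.3 ± 0.159 CPM per kb and Dusp10, a phosphatase of p38 and JNK, at 16.3 ± 1.76. Spred1, Dusp16 and Dusp8 lay between 7.12 and 9.37 CPM per kb, and Spry4 was lowest at 4.59 ± 0.461. With the length of the principal transcript in place of all annotated exons, Dusp1 moved to 50.8 CPM per kb and Dusp16, another JNK and p38 phosphatase, from rank 8 to rank 7.

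The members lay on 10 chromosomes in GENCODE M21 (GRCm38), with Dusp1 at chr17:26505590-26562128, Dusp4 at chr8:34807297-34819894, Dusp5 at chr19:53529109-53542431, Dusp6 at chr10:99263231-99267489 and Dusp8 at chr7:142079490-142095843. Dusp10 was at chr1:184013302-184075636, Dusp16 at chr6:134715468-134792625, Spry2 at chr14:105891947-105896819, Spry4 at chr18:38586247-38601415 and Spred1 at chr2:117121374-117182279. Exons of Dusp1, Dusp5 and Dusp8 overlap an opposite-strand gene by 11 bases (Ergic1), 547 bases (AC137853.2) and 66 bases (Gm32786). Whether counting used strand is not given in the sources used here, so reads from these overlaps cannot be told apart. Gm32786 had at most 4 counts in any library.

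**Figure D1:**
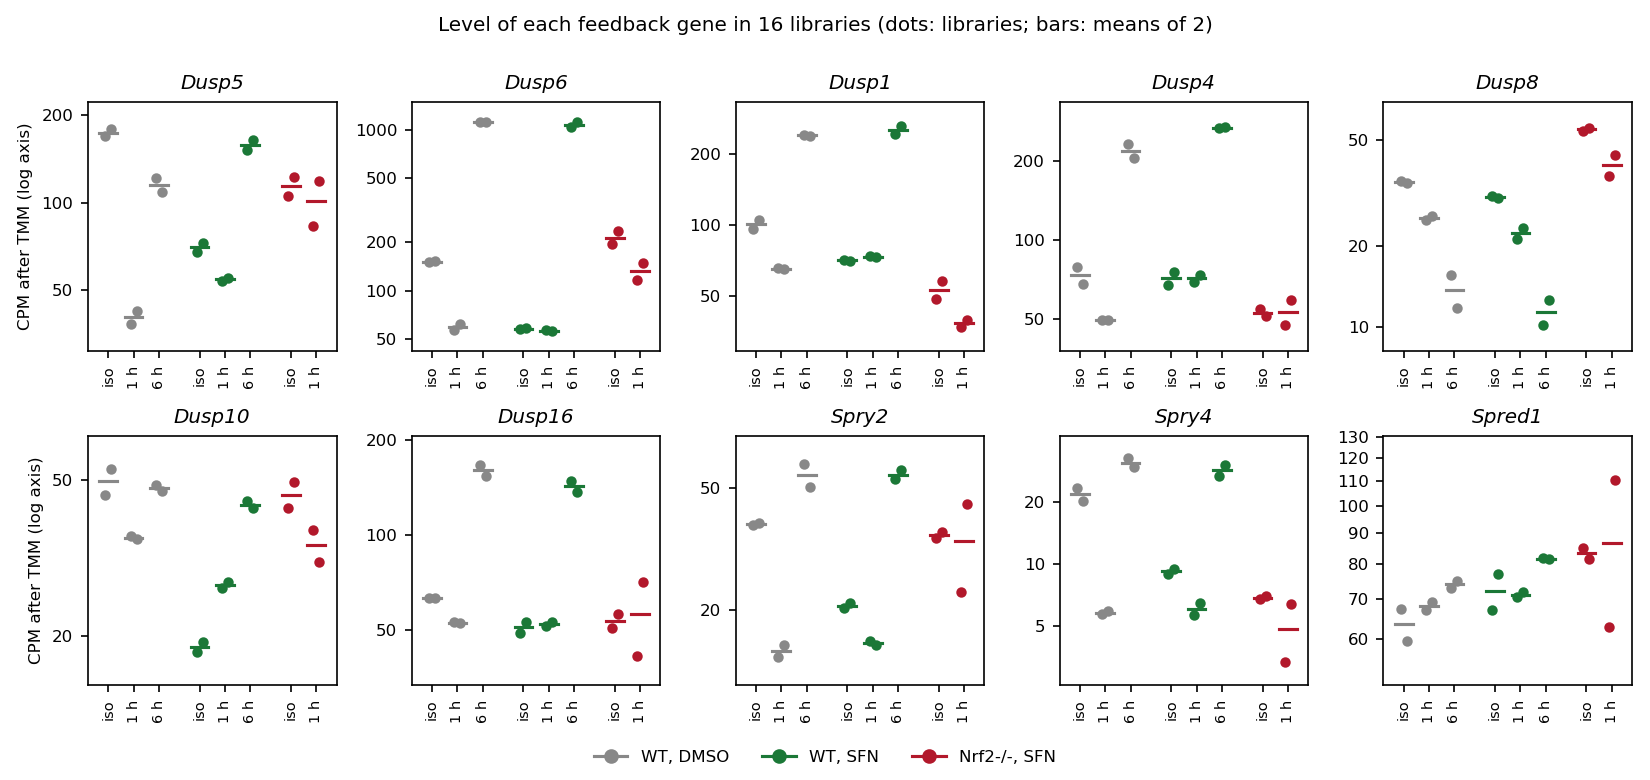
Level of each of the 10 genes in every library, in CPM after TMM scaling on a log axis (dots, libraries; bars, means of 2), for isosmotic cells (iso) and both stress times. Dusp6 reached 1033 to 1117 CPM in all 4 libraries taken at 6 h, and Dusp8 fell to 10.2 to 15.6 CPM in the same libraries.

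After 1 h of hyperosmotic stress in WT cells with DMSO, 7 of the 10 genes fell, 0 rose and 3 did not pass the test (adjusted p under 0.05, edgeR quasi-likelihood test). Of all 19509 genes tested, 4.11% fell and 1385 rose in this comparison. The median log2 fold change of the 10 genes was -0.60, beside 0.0016 over all genes. In RNA from whole cultures, fewer cells expressing a gene and less RNA per cell cannot be told apart.

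The ERK phosphatases and the Sprouty genes fell furthest. Dusp5 was at 169 and 180 CPM in the isosmotic libraries and at 38.4 and 42.5 CPM at 1 h, which is 4.31-fold lower (log2 fold change -2.11, SE 0.15, adjusted p = 7.23e-07). Spry4, which restrains signalling from growth factor receptors, went from 23.4 and 20.3 CPM to 5.68 and 5.91 CPM, or 3.77-fold lower (log2 -1.91, SE 0.22, adjusted p = 5.43e-05). For both genes the stressed libraries lay far below the unstressed ones. Spry2 was at 37.998 and 38.5 CPM and then at 14.1 and 15.4 CPM, 2.59-fold lower (adjusted p = 0.000755). Dusp6 went from 151 and 153 CPM to 57.2 and 62.3 CPM, 2.54-fold lower (adjusted p = 6.13e-06). Within each of these genes the 2 libraries of a condition were close, and the conditions did not overlap.

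The broad nuclear phosphatases fell less. Dusp1, an immediate-early gene, was at 96.6 and 106 CPM without stress and at 65.8 and 65.0 CPM at 1 h, 1.55-fold lower (adjusted p = 0.000842). Dusp4 went from 78.9 and 68.2 CPM to 49.7 and 49.6 CPM, 1.48-fold lower (adjusted p = 0.00612). The fall of Dusp4 missed the threshold in 3 of 16 fits that each left out 1 library, those without WT DMSO isosmotic replicate 1 or either 1 h library (adjusted p = 0.0512 to 0.0719).

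Among the JNK and p38 phosphatases, Dusp10 fell 1.39-fold (45.9 and 53.4 CPM to 35.9 and 35.3 CPM, adjusted p = 0.0178). This call was lost without WT DMSO isosmotic replicate 2 and without either 1 h library (adjusted p = 0.110 to 0.207). Dusp8, a JNK and p38 phosphatase, was at 34.97 and 34.4 CPM and then at 25.0 and 25.9 CPM (log2 -0.45, adjusted p = 0.0581). Dusp16 had a log2 fold change of -0.26 (adjusted p = 0.401) and Spred1, which acts together with neurofibromin to restrain Ras signalling, one of 0.10 (adjusted p = 0.797). Dusp8 and Dusp16 were called lower in a fit on the 12 WT libraries (adjusted p = 0.0132 and 0.0196). They were also called without both Nrf2-/- libraries taken at 1 h (adjusted p = 0.00533 and 0.0162). The stressed and unstressed libraries of Spred1 overlapped. The share of all genes without such overlap was not computed, so a lack of overlap is not read as support for the genes not called.

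After 6 h the order was different. With DMSO, 5 of the 10 genes were higher than in isosmotic cells, 2 were lower and 3 did not pass the test, where 23.9% of all genes were higher and 22.0% lower. The median log2 fold change of the members was 0.52, and that of all genes 0.048. Epithelial markers moved as well: 6 of 8 were higher and 1 lower at 6 h. Their sum was 4701 to 4756 CPM against 3124 to 3453 CPM without stress. Of tested markers of other cell types, all at low levels, 2 of 2 for proximal tubule and 2 of 3 for endothelium were also higher. So was 1 of 2 each for intercalated cells, fibroblasts and leukocytes, and 0 of 5 principal cell markers were called. The part of these markers in the result was not tested.

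Dusp6 changed most of the members at 6 h. Its libraries stood at 1113 and 1117 CPM, against 151 and 153 CPM without stress, which is 7.34-fold higher (log2 2.88, SE 0.13, adjusted p = 7.94e-10). Per length it reached 356 ± 0.998 CPM per kb, and the next member, Dusp4, reached 79.6 ± 6.96 CPM per kb. Dusp4 rose 2.96-fold, from 78.9 and 68.2 CPM to 232 and 205 CPM (adjusted p = 1.44e-07). Dusp16 rose 2.53-fold, from 63.2 CPM in both libraries to 167 and 153 CPM (adjusted p = 2.24e-05). Dusp1 rose 2.38-fold, to 242 and 240.5 CPM (adjusted p = 2.13e-07). In these 4 genes every library at 6 h was above every isosmotic and 1 h library with DMSO.

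Dusp8 and Dusp5 were lower at 6 h than in isosmotic cells. Dusp8 was at 15.6 and 11.8 CPM, 2.53-fold lower (log2 -1.34, SE 0.15, adjusted p = 4.51e-06), and so lay below its own 1 h values as well. Dusp5 was at 122 and 109 CPM, 1.51-fold below the isosmotic cells (adjusted p = 0.00302) and 2.85-fold above its 1 h level (adjusted p = 1.23e-06).

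Of the Sprouty genes, only Spry2 passed the test at 6 h. Spry2 was at 60.0 and 50.6 CPM (log2 0.53, SE 0.21, adjusted p = 0.0466), a call that was lost in 14 of 16 fits without 1 library, with 0.40 to 0.64 on the log2 scale, and with library totals in place of TMM (log2 0.35, adjusted p = 0.164). Spry4 was at 32.5 and 29.5 CPM and missed the threshold (log2 0.50, SE 0.20, adjusted p = 0.0552). It passed with DESeq2 (adjusted p = 0.0313), with RLE size factors (adjusted p = 0.0344) and without both Nrf2-/- libraries taken at 1 h (adjusted p = 0.0013). Dusp10 (log2 -0.057, adjusted p = 0.733) and Spred1 (log2 0.22, adjusted p = 0.337) were not called. Spred1 passed in a fit on the 12 WT libraries (adjusted p = 0.0130) and without both Nrf2-/- libraries taken at 1 h (adjusted p = 0.0436).

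Between 1 h and 6 h with DMSO, 8 members rose, where 20.4% of all genes did, and 1 fell, where 22.0% did. The 6 h and 1 h comparisons with isosmotic cells share their unstressed libraries, so this contrast is given for itself. Dusp6 rose 18.7-fold (log2 4.22, SE 0.13, adjusted p = 3.10e-11). Spry4 rose 5.35-fold, Dusp4 4.39-fold, Spry2 3.74-fold, Dusp1 3.69-fold and Dusp16 3.04-fold, each with an adjusted p of at most 5.94e-06. Dusp10 rose 1.34-fold (adjusted p = 0.0104), which was lost without either 1 h library or 6 h replicate 1 (adjusted p = 0.0621 to 0.0740) and with library totals (log2 0.20, adjusted p = 0.208). Dusp8 fell 1.85-fold (adjusted p = 0.000181), and Spred1 was at log2 0.12 (adjusted p = 0.632). Scaling by library totals alone shifted the median of all genes by -0.17 in the 6 h comparison and by -0.22 between 1 h and 6 h on the log2 scale. It moved the share of higher among called genes from 52.1% to 41.0% and from 48.1% to 34.3%.

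**Figure D2:**
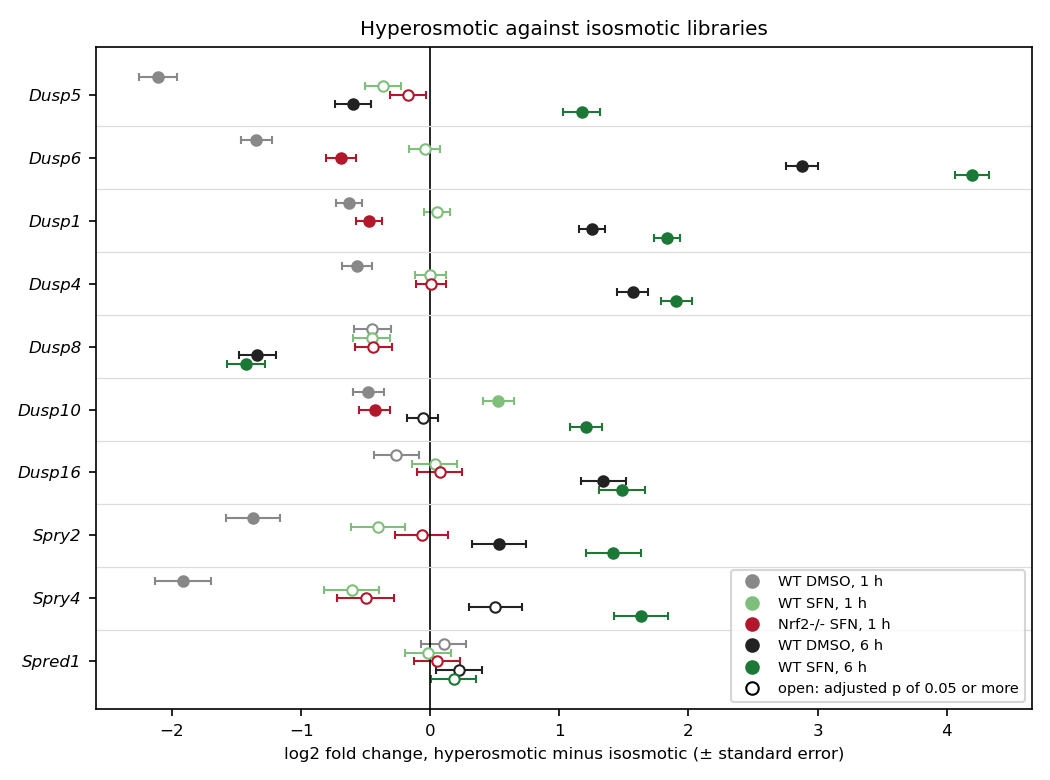
Log2 fold change of each gene, hyperosmotic against isosmotic cells of the same genotype and treatment, with the standard error (bars); open points have an adjusted p of 0.05 or more. At 1 h, points of WT cells with DMSO lie left of 0 for 9 genes, and at 6 h Dusp6 lies at 2.88 with DMSO and 4.20 with SFN.

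SFN alone also lowered members of the group, in a comparison that shares the isosmotic DMSO libraries with the stress comparisons above. In isosmotic WT cells, 6 of 10 members were lower with SFN than with DMSO, 0 were higher and 4 were not called. Of all 19509 genes tested, 1.76% were lower and 212 genes were higher. The median log2 fold change was -0.70 for the members and 0.00 for all genes. Of the 8 epithelial markers, 4 were lower with SFN and 0 higher, with a sum of 2397 to 2600 CPM against 3124 to 3453 CPM, and their part in the result was not tested.

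The genes that fell were both ERK phosphatases, both Sprouty genes, Dusp10 and Dusp1. Dusp10 was at 45.9 and 53.4 CPM with DMSO and at 18.1 and 19.3 CPM with SFN, 2.65-fold lower (log2 -1.41, SE 0.12, adjusted p = 1.17e-05). Dusp6 went from 151 and 153 CPM to 58.2 and 58.5 CPM, 2.60-fold lower (log2 -1.38, SE 0.12, adjusted p = 1.17e-05). Dusp5 went from 169 and 180 CPM to 67.7 and 72.8 CPM, 2.48-fold lower (adjusted p = 8.51e-05). For these 3 genes the SFN libraries lay below every library of isosmotic DMSO cells by a wide margin. Spry4 was at 8.93 and 9.43 CPM, 2.38-fold lower (adjusted p = 0.00369). Spry2 was at 20.3 and 21.2 CPM, 1.84-fold lower (adjusted p = 0.0352), a call lost in 14 of 16 fits without 1 library and with RLE size factors (adjusted p = 0.0537). Dusp1 was at 71.3 and 70.9 CPM, 1.42-fold lower (adjusted p = 0.0102), which was lost without DMSO replicate 2 or either SFN library (adjusted p = 0.0835 to 0.151).

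The other 4 members gave no call. Dusp4 differed by -0.042 on the log2 scale (adjusted p = 0.928), Dusp8 by -0.18 (adjusted p = 0.578), Dusp16 by -0.31 (adjusted p = 0.414) and Spred1 by 0.18 (adjusted p = 0.663). Dusp16 was called lower in a fit on the 12 WT libraries (adjusted p = 0.00921) and without both Nrf2-/- libraries taken at 1 h (adjusted p = 0.00866). The libraries of Dusp4 and of Spred1 overlapped between DMSO and SFN.

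Under hyperosmotic stress, SFN and DMSO cells were compared again at the same time. At 1 h, 0 of 10 members were called in the edgeR quasi-likelihood test, where 0.0923% of all genes were higher and 669 genes had an unadjusted p under 0.05. DESeq2 called 1 member, Dusp4. At 6 h, 0 of 10 were called, where 0.0410% of all genes were higher and 718 genes had an unadjusted p under 0.05, and DESeq2 also called 0. Fits on only the 4 libraries compared called 4 members at 1 h and 2 at 6 h, and a fit without both Nrf2-/- libraries taken at 1 h called 2 and 1.

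Dusp4 had the largest difference at 1 h, with 49.7 and 49.6 CPM in DMSO cells and 69.4 and 73.7 CPM in SFN cells (log2 0.53, SE 0.12, adjusted p = 0.288). Its libraries did not overlap. Dusp5 was at 38.4 and 42.5 CPM with DMSO and 53.8 and 55.2 CPM with SFN at 1 h (log2 0.43, SE 0.14, adjusted p = 1), and at 6 h it differed by 0.46 (SE 0.14, adjusted p = 1). Dusp10 differed by -0.40 at 1 h (SE 0.12, adjusted p = 0.928). On the 4 libraries compared alone, edgeR called Dusp4, Dusp5, Dusp10 and Dusp1 at 1 h (adjusted p = 4.83e-08, 2.32e-05, 0.000372 and 0.0453). At 6 h such a fit called Dusp5 and Dusp4 (0.00100 and 0.0241). On the 12 WT libraries, Dusp4, Dusp5 and Dusp10 passed at 1 h (0.00200, 0.00932 and 0.0436) and Dusp5 at 6 h (0.00692). Without both Nrf2-/- libraries taken at 1 h, Dusp4 and Dusp5 passed at 1 h (0.000922 and 0.0144) and Dusp5 at 6 h (0.0140). For Dusp6 the difference was -0.078 at 1 h (SE 0.12) and -0.059 at 6 h (SE 0.12), beside -1.38 in isosmotic cells.

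**Figure D3:**
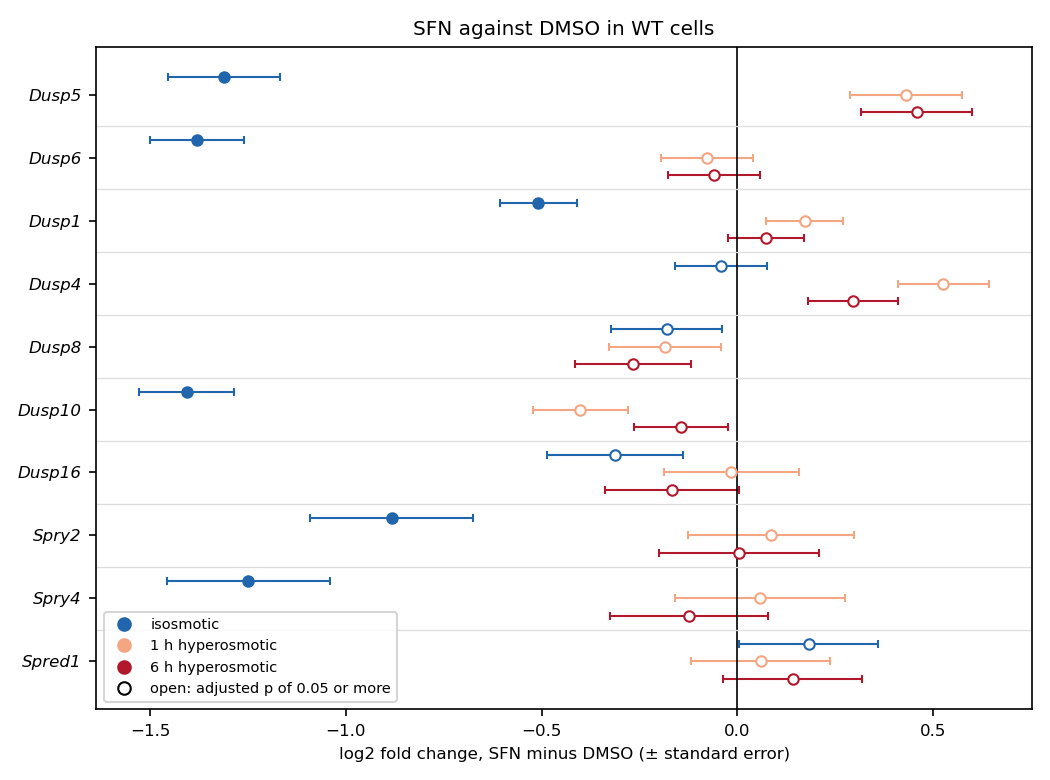
Log2 fold change of each gene in WT cells, SFN against DMSO, for isosmotic cells and both stress times, with the standard error (bars); open points have an adjusted p of 0.05 or more. Filled points occur only in isosmotic cells, for 6 genes, all left of 0.

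The stress response was then followed within SFN cells. At 1 h, 1 of 10 members was called higher than in isosmotic SFN cells, where 5.94% of all genes were higher. Of the members 0 were called lower, where 699 of all 19509 genes were. The called gene was Dusp10, from 18.1 and 19.3 CPM to 26.5 and 27.4 CPM (1.44-fold, adjusted p = 0.0133), a call lost without any 1 of the 4 libraries compared (adjusted p = 0.0697 to 0.111). Dusp6 stood at 56.7 and 56.5 CPM after 1 h and 58.2 and 58.5 CPM before. A fit on the 4 libraries compared called 5 members, Dusp10 higher and Dusp5, Dusp8, Spry2 and Spry4 lower, as did a fit without both Nrf2-/- libraries taken at 1 h. Main values of those 4 lower genes were -0.37, -0.45, -0.40 and -0.61 on the log2 scale.

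At 6 h with SFN, 8 members were higher than in isosmotic SFN cells, where 24.7% of all genes were, and 1 was lower, where 22.9% were. Dusp6 rose 18.3-fold, to 1033 and 1107 CPM (log2 4.20, SE 0.13, adjusted p = 2.98e-11). Dusp4 rose 3.74-fold to 267 and 268 CPM, Dusp1 3.57-fold to 243 and 264 CPM, and Spry4 3.10-fold to 26.8 and 30.2 CPM. Dusp16, Spry2, Dusp10 and Dusp5 rose 2.80-fold, 2.67-fold, 2.31-fold and 2.25-fold, and Dusp8 fell 2.68-fold to 10.2 and 12.6 CPM. Epithelial markers moved here too, with 7 of 8 higher and 0 lower, and a sum of 4390 to 4650 CPM against 2397 to 2600 CPM in isosmotic SFN cells. Of other markers tested, 2 of 2 for intercalated cells, 2 of 3 for endothelium and 1 of 5 for principal cells were higher. So was 1 of 2 each for proximal tubule, fibroblasts and leukocytes. The part of these markers in the result was not tested. Each of the 9 calls of members had an adjusted p of at most 6.87e-05, and Spred1 was not called (log2 0.18, adjusted p = 0.427). Between 1 h and 6 h with SFN, 8 members were higher, where 20.9% of all genes were, and 1, Dusp8, was lower, where 21.7% were.

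The stress change with SFN minus the stress change with DMSO was tested as an interaction term. It is also the difference between SFN and DMSO under stress minus that in isosmotic cells. A lower isosmotic level with SFN alone thus raises it. At 1 h it was called above 0 for 4 members and called below 0 for none. Of all genes, 0.487% were called above 0, and 14 of 19509 below. The terms were 1.74 for Dusp5 (SE 0.20, adjusted p = 0.000668), 1.30 for Dusp6 (SE 0.17, adjusted p = 0.00132), 1.01 for Dusp10 (SE 0.17, adjusted p = 0.0110) and 0.68 for Dusp1 (SE 0.14, adjusted p = 0.0423). Dusp5, Dusp6 and Dusp1 fell at 1 h with DMSO and gave no call with SFN, and Dusp10 fell with DMSO and rose with SFN. At 6 h the term was called above 0 for 3 members, where 0.595% of all genes were: Dusp5 at 1.77 (SE 0.20, adjusted p = 0.000349), Dusp6 at 1.32 (SE 0.17, adjusted p = 0.000824) and Dusp10 at 1.26 (SE 0.17, adjusted p = 0.00136). Dusp5 was lower than isosmotic cells with DMSO and higher with SFN at 6 h.

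Both interaction terms contain the same isosmotic libraries, in which these genes were lower with SFN. For Dusp6, SFN and DMSO cells differed by -1.38 on the log2 scale in isosmotic cells, by -0.078 at 1 h and by -0.059 at 6 h. Spry4 had terms of 1.31 at 1 h (SE 0.30, adjusted p = 0.0881) and 1.13 at 6 h (SE 0.29, adjusted p = 0.121), and Spry2 of 0.97 (adjusted p = 0.300) and 0.89 (adjusted p = 0.288). Both passed at both times in a fit without both Nrf2-/- libraries taken at 1 h, which called 7 members at 1 h and 6 at 6 h. The call of Dusp1 at 1 h was lost in 12 of 16 fits without 1 library (adjusted p = 0.0774 to 0.262) and that of Dusp10 at 1 h in 7 (adjusted p = 0.0509 to 0.0920). Dusp8 had a term of -0.0044 at 1 h and -0.086 at 6 h.

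Nrf2-/- and WT cells were compared under SFN. In isosmotic cells, 5 members were higher in Nrf2-/- cells, where 15.7% of all genes were, 2 were lower, where 18.4% were, and 3 were not called. Cell type markers also differed between the lines. Of 2 fibroblast markers tested, 1 was higher and 1 lower in Nrf2-/- cells, and of 2 leukocyte markers tested, 1 was higher. Principal cell markers summed to 1.70 to 2.15 CPM in Nrf2-/- and 5.29 to 6.79 CPM in WT cells, with 2 of 5 tested lower, and proximal tubule markers to 0.0558 to 0.29 against 7.07 to 7.58 CPM. Of 8 epithelial markers, 2 were higher and 3 lower, with sums of 2416 to 2488 against 2397 to 2600 CPM. Their part in the result was not tested. This comparison shares the isosmotic WT libraries with SFN that also enter the SFN comparison, so the values are given beside one another without a measure of likeness.

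Dusp6 was at 194 and 233 CPM in Nrf2-/- cells and at 58.2 and 58.5 CPM in WT cells with SFN, 3.66-fold higher (log2 1.87, SE 0.12, adjusted p = 2.37e-08), and WT cells with DMSO had 151 and 153 CPM. Dusp10 was at 42.4 and 49.3 CPM, 2.45-fold higher than WT with SFN (adjusted p = 1.18e-06), within the 45.9 to 53.4 CPM of DMSO cells for 1 of its 2 libraries. Dusp8 was at 53.8 and 55.4 CPM against 30.9 and 30.3 CPM, 1.79-fold higher (adjusted p = 0.000335), and above its level in every WT library. Spry2 was 1.70-fold higher (34.3 and 36.1 CPM, adjusted p = 0.0106) and Dusp5 1.62-fold higher (106 and 123 CPM, adjusted p = 0.00139). The call of Spry2 was lost without WT SFN replicate 1 or Nrf2-/- replicate 2 (adjusted p = 0.0731 and 0.0641).

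Dusp1 was at 48.6 and 57.8 CPM in Nrf2-/- cells against 71.3 and 70.9 CPM, 1.34-fold lower (adjusted p = 0.00429). Dusp4 was at 54.7 and 51.3 CPM, 1.35-fold lower (adjusted p = 0.0102). Both calls depended on single libraries, Dusp1 on Nrf2-/- replicate 1 (adjusted p = 0.0754 without it) and Dusp4 on WT SFN replicate 2 and Nrf2-/- replicate 2 (adjusted p = 0.0962 and 0.0861). Spry4, at 6.71 and 6.98 CPM, was not called (log2 -0.42, SE 0.21, adjusted p = 0.146), and it lay below the 20.3 to 23.4 CPM of WT cells with DMSO. Dusp16 and Spred1 gave no call. Without both Nrf2-/- libraries taken at 1 h, Spry4 (adjusted p = 0.0135) and Spred1 (adjusted p = 0.0221) passed.

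At 1 h of stress, the comparison of Nrf2-/- with WT cells rested on the pair of libraries that stood apart. Among all members 5 were higher, where 15.3% of all genes were, and 2 were lower, where 16.2% were. Dusp6 was at 117 and 148 CPM against 56.7 and 56.5 CPM, 2.34-fold higher (adjusted p = 1.93e-06), and Dusp1 at 37.2 and 39.6 CPM against 74.1 and 73.3 CPM, 1.92-fold lower (adjusted p = 4.66e-06). Spry2, at 22.9 and 44.4 CPM, was 2.14-fold higher, Dusp5 1.86-fold and Dusp8 1.80-fold higher, and Dusp4 1.35-fold lower, with adjusted p values of 0.000225 to 0.0118. The 2 stressed Nrf2-/- libraries lay far apart for Spry2, Spry4 (3.31 and 6.37 CPM), Dusp16 (41.1 and 71.0 CPM) and Spred1 (63.0 and 110 CPM). A fit on the 4 libraries compared called 2 members, Dusp6 and Dusp1. The higher level of Dusp10 (1.26-fold, adjusted p = 0.0459) was lost in 15 of 16 fits without 1 library, and the lower level of Dusp4 was lost without WT SFN 1 h replicate 2 (adjusted p = 0.0933). Without Nrf2-/- 1 h replicate 1 the comparison called 8 members, and without replicate 2 it called 9.

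Within Nrf2-/- cells, 1 h of stress lowered 3 members, where 2.81% of all genes were lower, and 7 were not called. Dusp6 fell from 194 and 233 CPM to 117 and 148 CPM, 1.61-fold (adjusted p = 0.00255). Dusp1 fell 1.39-fold (adjusted p = 0.00995) and Dusp10 1.35-fold (adjusted p = 0.0424). These counts moved with single libraries: without Nrf2-/- 1 h replicate 1 there were 6 calls, 3 higher and 3 lower, without replicate 2 there were 8, all lower, and without Nrf2-/- isosmotic replicate 2 there was 1. A fit on the 4 libraries compared called 0, and the call of Dusp1 was lost without Nrf2-/- isosmotic replicate 2 (log2 -0.34). That of Dusp10 was lost in 13 of 16 fits without 1 library (log2 -0.54 to -0.30 in those fits). The interaction of genotype with 1 h of stress was called for 1 member, Dusp10, at -0.96 (SE 0.17, adjusted p = 0.0474), where 0.0615% of all genes were called below 0. It was lost in 14 of 16 fits without 1 library (adjusted p = 0.0586 to 0.252).

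Further genes of the pathway were read from 7 fixed lists, whose counts are to be read against those of all genes. Of the 19509 genes tested, 1385 rose and 801 fell at 1 h with DMSO, 23.9% were higher and 22.0% lower at 6 h, 212 rose and 343 fell with SFN in isosmotic cells, and 15.7% were higher and 18.4% lower in Nrf2-/- cells. Of 12 other MAPK phosphatases, 1 rose and 2 fell at 1 h with DMSO. Dusp2, an inducible nuclear phosphatase, fell 15.9-fold, from 76.9 to 83.9 CPM in isosmotic libraries to 3.78 to 6.36 CPM (log2 -3.99, SE 0.27, adjusted p = 5.27e-07), and Dusp14 fell by 0.52 on the log2 scale. Ptprr, a receptor-type phosphatase of ERK, rose by 1.84 at 1 h, from 0.486 and 0.715 CPM to 2.07 and 2.22 CPM. At 6 h, 4 of the 12 were higher and 6 lower, with Ptprr at 4.60, Ppm1d at 1.74 and Dusp7, a cytoplasmic ERK phosphatase, at 1.36 on the log2 scale. With SFN in isosmotic cells, 0 rose and 2 fell, Dusp2 (log2 -2.13, adjusted p = 0.000135) and Dusp14 (log2 -0.42, adjusted p = 0.0463).

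Among 13 tested of the other Sprouty, Spred and receptor feedback genes, 0 rose and 2 fell at 1 h, Errfi1, which binds and inhibits the EGF receptor (log2 -1.04), and Spry1 (log2 -0.81). With SFN in isosmotic cells 0 rose and 2 fell, Errfi1 by 1.33 and Spry1 by 0.94 on the log2 scale. At 6 h, 4 were higher, with Il17rd, an inhibitor of FGF signalling, at 1.66, and 4 lower, with Spry1 at -1.83. In Nrf2-/- cells with SFN, Spry1 was higher by 1.07 and Il17rd lower by 1.49 on the log2 scale, and in all 5 of the 13 were higher and 2 lower.

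Of 15 tested ligands and receptors, 1 rose and 2 fell at 1 h, the EGF receptor ligands Areg (log2 -1.57) and Hbegf (log2 -1.04). Hbegf was also lower with SFN in isosmotic cells (log2 -1.11, adjusted p = 4.93e-05), as was the receptor Fgfr2 (log2 -0.95). At 6 h, 4 were higher, Egfr among them (log2 1.26), and 4 lower, Erbb2 among them (log2 -0.99). Of 13 transcripts known to follow ERK activity, 0 rose and 4 fell at 1 h, with Ier2 at -1.69, Fosl1 at -1.36 and Phlda1 at -1.36. At 6 h, 6 rose, with Etv1 at 4.05, Ier3 at 2.97 and Epha2 at 1.54, and 4 fell, with Egr1 at -1.34. With SFN in isosmotic cells 1 rose, Etv5 (0.80), and 4 fell, with Fos at -1.36. In Nrf2-/- cells, 4 were higher than in WT cells with SFN, Etv5 by 2.17 and Ccnd1 by 1.69, and 2 were lower.

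The kinase branches are given last. None of the 17 genes of the ERK branch and none of the 14 of the JNK branch passed the edgeR quasi-likelihood test at 1 h with DMSO, where 4611 of 19509 genes had an unadjusted p under 0.05. Of 19 genes of the p38 branch, Taok3 rose (0.51) and Map2k3, which activates p38, fell by 0.62 on the log2 scale, together with Ccm2 (-0.36). At 6 h, 2 ERK branch genes were higher, with Sos2 at 0.81, and 6 lower, with Braf at -1.01. The p38 branch had 5 higher and 4 lower of 19 genes, shares near the 23.9% and 22.0% of all genes, with Map2k6 lowest at -1.79. The JNK branch had 5 higher and 3 lower of 14, with Map2k4 lowest at -1.21. With SFN in isosmotic cells, 0 genes of these 3 branches were called. Nrf2-/- cells had 7 of 17 ERK branch genes higher and 5 lower, where 15.7% and 18.4% of all genes were, among the lower ones the scaffold Ksr1 at -4.47 (SE 0.17, adjusted p = 1.08e-10). At 1 h and 6 h, SFN against DMSO gave 0 calls in all 7 lists. Of all 19509 genes, only 18 were called at 1 h and 8 at 6 h, so 0 calls in a list say little about its genes.

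The interaction of SFN with stress was called above 0 for several genes of these lists and below 0 for none. At 1 h they were Dusp2 (2.34, SE 0.35, adjusted p = 0.00474), Areg (1.84), Errfi1 (1.43), Hbegf (1.38), Phlda1 (1.28), Fosl1 (1.25), Ier2 (1.13) and Spry1 (0.87). At 6 h they were Dusp2 (2.46), Errfi1 (1.68), Hbegf (1.32), Egr1 (1.28), Phlda1 (1.13) and Spry1 (0.65). The kinase branches gave 0 calls in this test. Of all 19509 genes, 95 were called above 0 and 14 below at 1 h, and 116 above and 32 below at 6 h. With so few calls, 0 in a branch says little about its genes. The isosmotic libraries enter both sets of terms, so a lower isosmotic level with SFN alone raises a term.

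**Figure D4:**
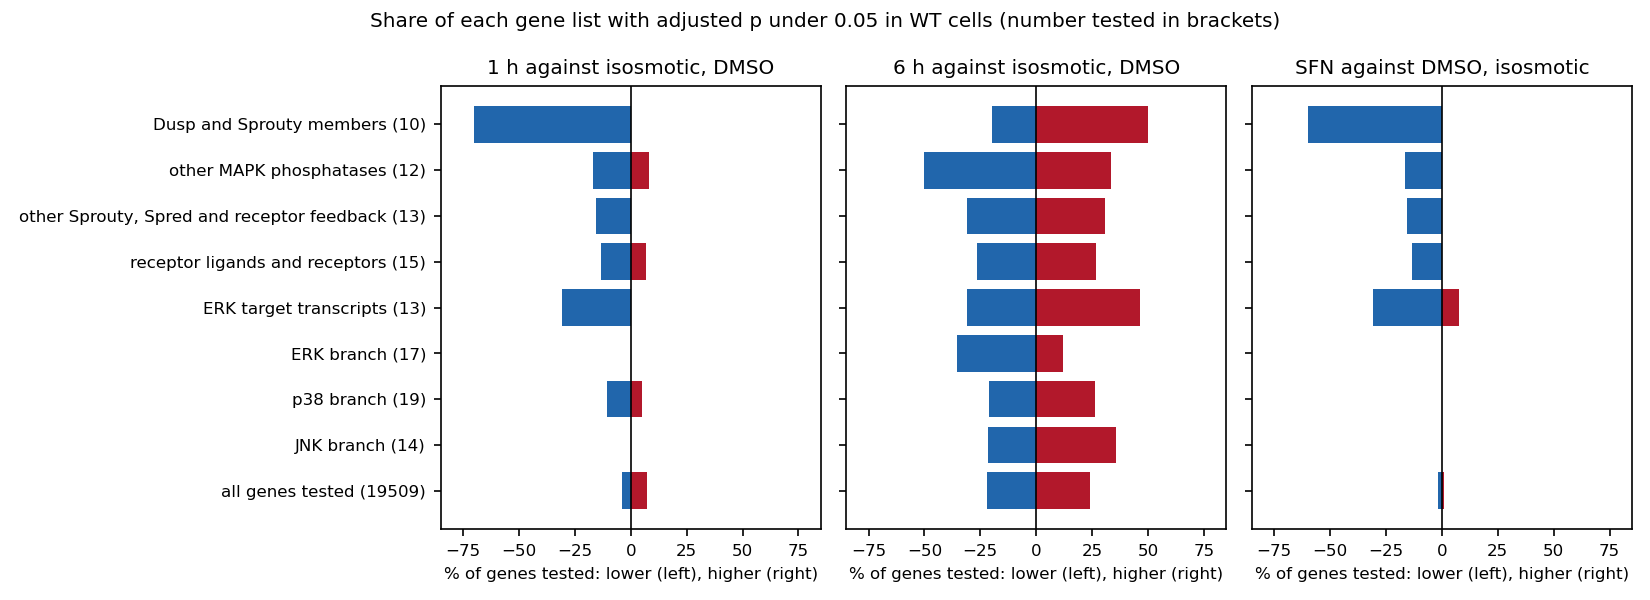
Share of each gene list, in % of the genes tested (number in brackets), that was higher (red, right) or lower (blue, left) at an adjusted p under 0.05 in WT cells. The bars of the 10 members at 1 h and with SFN lie only to the left, at 7 and 6 genes, beside 4.11% and 1.76% of all genes.

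Across the 16 libraries the members fell into patterns that the log2 CPM values describe. The correlation, over libraries that share conditions, was 0.949 between Dusp1 and Dusp4, 0.948 between Dusp4 and Dusp16, 0.919 between Dusp6 and Dusp16, and 0.905 between Dusp6 and Spry2. Dusp8 ran the other way, at -0.863 with Dusp1 and -0.859 with Dusp4. Spred1 correlated with no member above 0.419. Among 12291 genes with enough counts, the pair most like Dusp6 was Gmeb1 (0.986) and Runx1 (0.985), for Dusp1 it was Litaf (0.991) and Bcar1 (0.988), and for Dusp4 it was Styk1 and Ccdc97 (both 0.983). For Dusp5 the pair was Rhob (0.958) and Trib1 (0.956), for Dusp10 Atf3 (0.923) and Cnn3 (0.885), and for Dusp8 Zfp934 (0.972) and Carf (0.970). For Dusp16 it was Filip1l and Nmt2 (both 0.982), for Spry2 1700017B05Rik (0.982) and Trmt6 (0.965), for Spry4 Noct and Sprtn (both 0.957), and for Spred1 Pom121 (0.973) and Septin11 (0.971).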

How the data were processed

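RNA from 16 mIMCD3 cultures was sequenced, and the authors deposited one table of counts per library (whole-number read counts per gene symbol, without normalization). Their processing notes list Bowtie2, SAMtools, featureCounts and the mouse build mm10, whereas the methods name Hisat2 as aligner. Strand setting and versions are not given in the sources used here. Lines with no gene name, 2 in one file and 3 in another, held no counts and were left out. Among counts of 1 to 10, the share of even numbers was 58% to 68.5% in each library, and its cause was not tested.

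Groups and replicate numbers were taken from the labels' titles. The deposited files of WT SFN isosmotic cells carry other replicate numbers than the titles, which touches the replicate block. Counts were scaled by TMM, filtered with filterByExpr and fitted over all 19509 genes left with 1 term per condition (edgeR 4.0.16 quasi-likelihood F-test, robust, R 4.3.3), with Benjamini-Hochberg adjustment over those genes and a threshold of 0.05. The standard error is the log2 fold change divided by the square root of F. With 2 libraries per condition, an exact permutation test cannot go below p = 0.333, so none was used. Alternatives were DESeq2 1.42.0, RLE size factors, other filters and scalings, fewer libraries, a replicate block and leaving out each library. The scripts were tested on simulated data. Exon lengths came from GENCODE M21 and promoters from RefSeq. From each pathway list, the genes named were the 3 largest called changes per direction with a mean of at least 50 counts, and correlations used the same count minimum with a prior count of 2. A gene that this rule would name is not reported here. Other genes named were chosen after their values were seen. The members, lists and tests were chosen with earlier results of these data known.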

Additional observations from a re-analysis of the deposited data

Results flagged for a closer look

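The change with stress differed between SFN and DMSO cells by the interaction test for 4 genes at 1 h: Dusp5 (1.74), Dusp6 (1.30), Dusp10 (1.01) and Dusp1 (0.68), on the log2 scale. At 6 h it differed for Dusp5 (1.77), Dusp6 (1.32) and Dusp10 (1.26). Both sets of terms contain the same isosmotic libraries, in which these genes were lower with SFN. The change at 1 h differed between Nrf2-/- and WT cells with SFN for Dusp10 (-0.96), on the pair of Nrf2-/- libraries that stood apart.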

How the results depend on the processing

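Of 150 pairs of a gene and a comparison, 73 were called, 52 of them under every alternative, and all 73 kept their sign. A floor of 10 counts in every library moved no count of members called by more than 1.5 times. DESeq2 called 1 member for SFN at 1 h and 5 for the interaction of SFN with 6 h. Without a filter, 2 were called at 1 h with SFN, 5 for SFN by 6 h and 2 for Nrf2-/- by 1 h. With library totals, 2 were called at 1 h with SFN. On the libraries compared alone, the counts were 5 at 1 h with SFN, 4 and 2 for SFN at 1 h and 6 h, 2 for Nrf2-/- at 1 h, 0 at 1 h in Nrf2-/- cells, and 7, 6 and 0 for the interactions SFN by 1 h, SFN by 6 h and Nrf2-/- by 1 h. On the 12 WT libraries they were 5 at 1 h with SFN, 3 and 1 for SFN at 1 h and 6 h, and 7 and 6 for the SFN interactions. Without both Nrf2-/- libraries taken at 1 h they were 5, 2, 1, 7 and 6 in the same order. The causes were not tested.

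The replicate block called 0 members for Nrf2-/- by 1 h. It also ended the calls of Dusp10 in Nrf2-/- against WT at 1 h (adjusted p = 0.0584), Dusp10 at 1 h in Nrf2-/- cells (0.0620) and Dusp1 for SFN by 1 h (0.0548). Same-numbered libraries deviated together, with a correlation above 0.1, in 3 of 28 pairs of conditions (-0.246 to 0.403). Such correlations cannot show whether the cultures were paired.

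Leaving out 1 library in turn gave 0 to 5 calls at 1 h with SFN, 0 to 2 and 0 to 1 for SFN at 1 h and 6 h, 1 to 8 at 1 h in Nrf2-/- cells, 2 to 7 for SFN by 1 h, 3 to 6 for SFN by 6 h and 0 to 6 for Nrf2-/- by 1 h. It gave 5 to 9 at 1 h and 6 to 9 at 6 h with DMSO, 4 to 7 for SFN in isosmotic cells, and 5 to 9 for Nrf2-/- in isosmotic cells and at 1 h.

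Direction turned only for values not called with all libraries and TMM. With library totals these were Spred1 for 6 h against 1 h with DMSO (-0.10), 6 h with SFN (-0.054), 6 h against 1 h with SFN (-0.0025) and 1 h in Nrf2-/- cells (-0.041), and Dusp16 for Nrf2-/- at 1 h (-0.0054) and 1 h in Nrf2-/- cells (-0.023). Leaving out 1 library, values for Nrf2-/- at 1 h ran from -0.86 to 0.091 for Spry4, -0.34 to 0.46 for Dusp16 and -0.18 to 0.64 for Spred1. For 1 h in Nrf2-/- cells they ran from -0.37 to 0.41 for Dusp16, -0.45 to 0.056 for Dusp5, -0.62 to 0.33 for Spry2 and -0.40 to 0.39 for Spred1. Some of these passed the test in both directions: for 1 h in Nrf2-/- cells, Spry2, Dusp16 and Spred1 were called higher without Nrf2-/- 1 h replicate 1 and lower without replicate 2, as was Dusp16 for Nrf2-/- against WT at 1 h. For Nrf2-/- by 1 h they ran from -0.38 to 0.42 for Spred1, -0.084 to 0.43 for Dusp5 and -0.22 to 0.74 for Spry2.

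Library totals shifted the median of all genes by -0.22 at 6 h with SFN, -0.20 between 1 h and 6 h with SFN and -0.10 for Nrf2-/- at 1 h. The share of higher among called genes went from 51.9% to 39.0% at 6 h with SFN, from 49.0% to 36.0% between 1 h and 6 h with SFN, and from 38.2% to 52.1% for SFN in isosmotic cells.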
